A study of Mus musculus with 18 samples.

Results

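The genes described here encode the factors that start and extend protein synthesis on cytosolic ribosomes, together with the proteins that bind or modify them, in whole lungs of mouse embryos at 14.5 days post coitus (dpc). Members were all genes of the 3 deposited tables whose symbol is Eif or Eef followed by a digit and whose mean normalized read count was at least 50 over the 6 samples of each table, Eif4ebp1 among them. Of the 23420 genes in a table, 67 carried such a symbol and 63 met the level. Of the 4 left out, Eif3j1 and Eif4e1b were at 0 in all 18 samples, Eif3j2 never exceeded 4.04, and Eef1a2 had table means of 19.0, 139 and 27.8. The members nearest to the limit were Eif4ebp3, with table means of 206, 395 and 209, and Eif2c3, with 334, 297 and 359. The 4 genes listed as Eif2c1 to Eif2c4 are older symbols of the Argonaute genes Ago1 to Ago4, which act in small RNA silencing and entered by name only.

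Lungs from 3 conditional deletion lines were profiled by RNA sequencing, with 3 control and 3 deficient samples in each line. Deficient embryos were homozygous for a floxed allele of Rptor, Tfam or Cox10 and carried ShhCre (Rptor f/f, Tfam f/f or Cox10 f/f with ShhCre/+). Controls were littermates that were f/+ at the same locus and also carried ShhCre/+, so every sample had the Cre allele and at least 1 floxed allele. Rptor encodes the Raptor subunit of the kinase complex mTORC1, Tfam the factor that compacts mitochondrial DNA and starts its transcription, and Cox10 an enzyme of heme A synthesis for cytochrome c oxidase. Shh-driven Cre recombines in the lung epithelium, while the RNA came from the whole lung, so the mesenchyme and other cells kept the gene. The labels do not say that each sample was a separate embryo, and p-values measure the spread between these samples.

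In initiation, eIF2 carries the initiator tRNA to the small ribosomal subunit, where eIF1, eIF1A, eIF3 and eIF5 assemble, and eIF2B recharges eIF2 with GTP. The cap-binding protein eIF4E, the scaffold eIF4G and the helicase eIF4A bring in the mRNA, and eIF5B joins the large subunit. In elongation, eEF1A delivers aminoacyl-tRNAs, the eEF1B subunits recharge it, eEF2 moves the ribosome along, and eIF5A relieves stalled ribosomes. Signaling enters at both ends: mTORC1 phosphorylates the 4E-BP proteins, which otherwise block eIF4E, and it restrains eEF2 kinase, which inactivates eEF2. The 4 eIF2α kinases lower eIF2B activity under stress and favor translation of the ATF4 mRNA.

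Many mRNAs of the translation apparatus, that of eEF2 among them, begin with a run of pyrimidines, the terminal oligopyrimidine or TOP motif, through which mTORC1 controls their translation. The 60 bases around the annotated start site, 30 before it and 30 from it on, are shown 5′ to 3′ for 6 members on which the results turn, with runs of 7 or more consecutive C or T in capitals. Sequences and positions are from the RefSeq start-site table (GRCm38.p6). The run in the Eef2 window covers bases 15 to 22 counted from the annotated start, so this window does not show it at the first base.
Eef2, chr10:81176601-81176660, plus strand: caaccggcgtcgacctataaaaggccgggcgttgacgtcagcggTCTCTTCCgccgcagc
Eif3l, chr15:79075193-79075252, plus strand: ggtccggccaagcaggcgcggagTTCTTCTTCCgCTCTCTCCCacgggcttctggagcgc
Eif2s3x, chrX:94212622-94212681, minus strand: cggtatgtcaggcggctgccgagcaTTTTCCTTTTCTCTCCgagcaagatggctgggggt
Eif2s3y, chrY:1010565-1010624, plus strand: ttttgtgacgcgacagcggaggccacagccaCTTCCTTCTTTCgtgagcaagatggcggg
Eif5a2, chr3:28781247-28781306, plus strand: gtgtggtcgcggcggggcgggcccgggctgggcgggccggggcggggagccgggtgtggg
Eif4a1, chr11:69672394-69672453, minus strand: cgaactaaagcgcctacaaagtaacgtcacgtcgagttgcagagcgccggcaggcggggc

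Of the 63 members, 50 had an entry in that table and 42 had a single start site. A run was present on the coding strand in 14 of these 42 windows (33.3%) and in 33.8% of the table's 32851 windows of the same length. On the opposite strand the shares were 28.6% and 37.7%. Among the 24 single-start members that fell in the Rptor line 6 had a run, and among the 16 that passed no threshold there 7 had one. A run was counted anywhere in the window, also before the start, so these counts describe letters in annotated windows and do not say which mRNAs carry a TOP motif or where transcripts began in these lungs.

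The samples held 27675600 to 29704700 reads assigned to genes. Members took 2.80% to 3.21% of the total in each sample, of which Eef1a1 alone made up 0.949% to 1.37%. Tfam and Cox10 transcripts did not pass the threshold in the lines named after them, with adjusted p of 0.472 and 0.979, nor did Rptor in its own line, where values were 2298, 2224 and 2197 in the controls and 2442, 1986 and 2019.8 in the deficient lungs (adjusted p = 0.5703). With deletion in the epithelium only and a floxed allele in the controls too, the targeted transcripts do not check the labels here. All 10 of 10 epithelial markers were lower in Rptor deficient lungs, with a summed level of 12971 to 17098 against 32075 to 32936 in the controls. In the Tfam line 6 of 10 were lower (24247 to 26845 against 30490 to 31785), and in the Cox10 line 3 of 10 (16583 to 21589 against 24545 to 24978), with no marker at 0. The 6 markers of cycling cells were all lower in Rptor deficient lungs (66100 to 67788 against 81370 to 88155), and 0 of 6 passed the threshold in the other lines.

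Sex-linked transcripts differed between samples of a group. The Y-linked Eif2s3y exceeded 400 in Rptor control 2, Rptor deficient 1 and 2, Tfam controls 2 and 3, Tfam deficient 1, Cox10 controls 2 and 3 and Cox10 deficient 3. Of these, Tfam controls 2 and 3, Tfam deficient 1 and Cox10 control 3 also held Xist, the RNA of the inactive X chromosome, at 5265, 21675, 10224 and 17951. Those 4 samples thus contained both a Y-linked and an inactive X transcript. The remaining Tfam samples, control 1 and deficient 2 and 3, held Eif2s3y at 14.2, 50.6 and 59.6 beside Xist at 43497, 38641 and 40316.5, so all 6 samples of that line had reads of both. In the Rptor and Cox10 lines, samples with high Xist other than Cox10 control 3 had Eif2s3y at 0 to 1.99. Whether these samples held several embryos or RNA carried over from another sample was not tested, and the labels give no sex and no number of embryos per sample. Members that lose their call within a line when log2 Xist is added as a covariate are named below. For differences between lines, the members that lose their call with it are not named.

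In Rptor deficient lungs 32 of the 63 mRNAs were lower than in the controls, among them those of the cap-binding complex and of all subunits of eIF2B, while those of eEF2 and its kinase were higher. At an adjusted p below 0.05 by limma, 36 of the 63 (57.1%) passed, 32 lower and 4 higher, where 34.8% of all 14940 genes tested passed. Of all genes, 18.2% passed as lower and 16.6% as higher. Control and deficient values did not overlap for 45 members, 38 of them lower, while they did not overlap for 50.3% of all genes. The median log2 fold change of the members was -0.18, and that of all genes 0.0083. Without the Argonaute and sex-linked genes, 35 of 57 were called, 3 higher and 32 lower, with a median of -0.20. All 63 members passed the filter on low values in every line.

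Most of the called changes were of modest size, between -0.58 and -0.15 for those that fell and between 0.19 and 0.41 for those that rose. In whole lung, fewer cells of a type and less RNA per cell cannot be told apart. The epithelial and cycling-cell marker levels were lower with the same genotype. Mesenchymal markers were higher for 6 of 10 genes, with a summed level of 415863 to 446816 against 220396 to 250054 in the controls, those of endothelium for 5 of 6 (39200.3 to 43911 against 30708 to 32481), of mesothelium for 4 of 5 (7268 to 7893 against 3579 to 4997) and of immune cells for 4 of 4 (2611 to 3029.7 against 1486 to 1622). Of 5 smooth muscle markers 4 were lower and 1 higher, with a median log2 fold change of -1.51 and overlapping summed levels (17086 to 25918 against 16717 to 22589.9). The part of these cell types in the changes was not tested. Leaving out Rptor control 2 or control 3 lowered the number of calls to 23 and 20, and 18 of the 36 calls passed the same threshold in all 12 other settings that kept all samples and in all 6 fits without 1 sample. These 18 were Eif1a, Eif1ad, Eif2s1, Eif2s2, Eif2b2, Eif2b5, Eif3a, Eif3b, Eif3c, Eif3l, Eif4a1, Eif4a3, Eif4e, Eif4g1, Eif5a, Eif5a2, Eef1d and Eef2k. Of the others, Eif2b1, Eif2b3 and Eif3g passed in 7 and Eif3i in 5 of the 12 other settings that kept all samples, and Eif1ax did not pass after a correction for GC content and length (0.0527). Among the members that rose, Eif2c4 passed in 2 and Eif3e in 1 of the 6 fits without 1 sample.

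**Figure D1:**
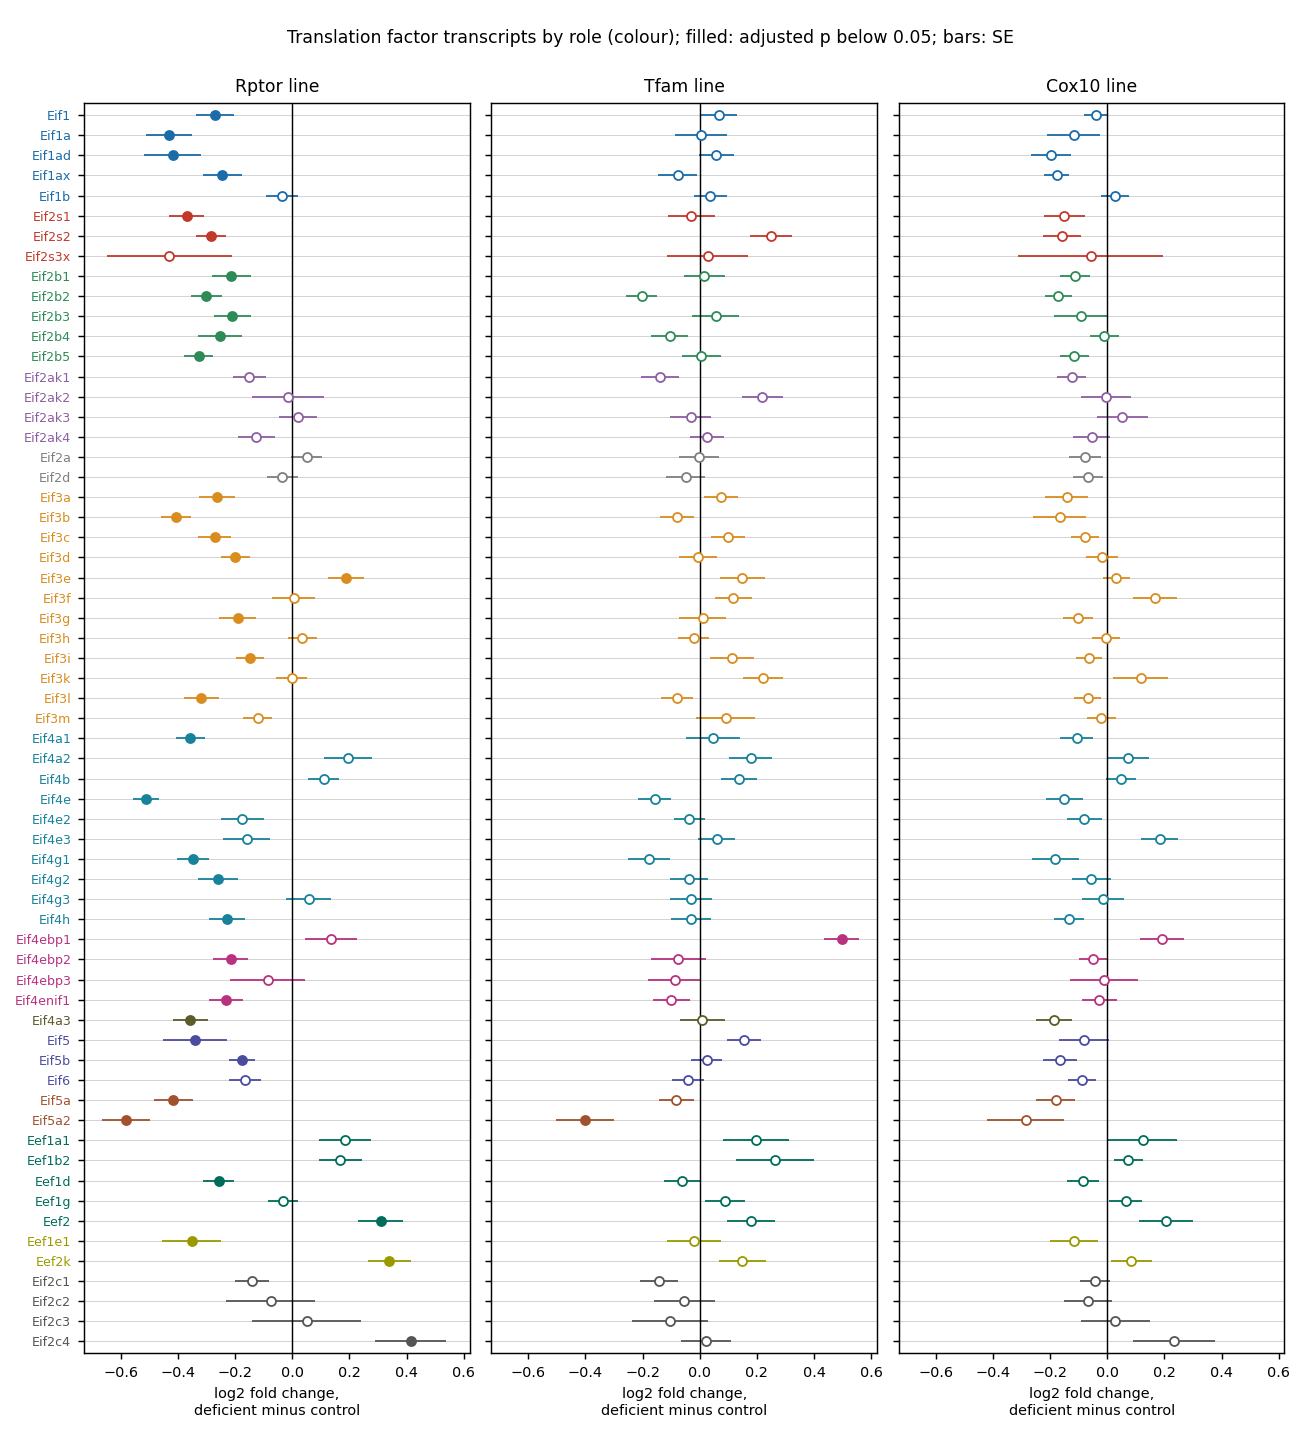
Log2 fold change (deficient minus control, with standard error bars) of each member in the Rptor, Tfam and Cox10 lines, ordered by role, with filled points for an adjusted p below 0.05 and Eif2s3y left out because it is off the scale. In the Rptor line 32 members lie below 0 and 4 above 0 as filled points, while the Tfam line has 2 filled points (Eif4ebp1 above and Eif5a2 below 0) and the Cox10 line has 0.

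The cap-binding step held the member with the smallest adjusted p. Eif4e, on chromosome 3 (138526179 to 138559696, plus strand, GRCm38.p6), encodes the protein that recognizes the mRNA cap. Its normalized read counts were 6139, 6107 and 5974 in the controls and 4201, 4321 and 4264 in the deficient lungs. Every deficient lung lay below every control, with 6073 ± 87.6 against 4262 ± 59.6 (mean ± SD, n = 3 each) and a log2 fold change of -0.51 (SE 0.0461, adjusted p = 0.000184). The scaffold Eif4g1 fell by 0.35 (adjusted p = 0.00235) and the helicase Eif4a1 by 0.36 (adjusted p = 0.00133), so that all 3 core components of the cap-binding complex eIF4F were lower. Eif4a1 read 31186, 32079 and 32558 in the controls and 25392, 24973 and 24479 in the deficient lungs. Eif4g2, a relative of eIF4G that does not bind eIF4E, and Eif4h, a cofactor of the helicase, fell by 0.26 and 0.23. In all, 5 of the 10 eIF4 cap and helicase factors were lower and 0 higher.

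The other eIF4A gene, Eif4a2, was not lower. It had a log2 fold change of 0.19 (SE 0.0842, adjusted p = 0.106) and the helicase cofactor Eif4b one of 0.11 (SE 0.0547, adjusted p = 0.153), and for both every deficient lung lay above every control although neither passed. With the replicate number as a block, Eif4a2 passed at an adjusted p of 0.0385. Eif4a3, whose product is an eIF4A-like helicase of the exon junction complex and not an initiation factor, fell by 0.36 (adjusted p = 0.00314). The remaining eIF4 members, Eif4e2, Eif4e3 and Eif4g3, had log2 fold changes of -0.17, -0.16 and 0.057 and did not pass.

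Of the 4 genes for proteins that bind and block eIF4E, the 4E-BPs and 4E-T, 2 fell and 2 did not pass. Eif4ebp1 (chromosome 8, 27260329 to 27276674, plus strand) read 1104, 900.2 and 1063 in the controls and 1114, 1057 and 1191 in the deficient lungs. The groups overlapped, and the log2 fold change of 0.14 (SE 0.0911, adjusted p = 0.279) did not pass. Eif4ebp2 read 2622, 2842 and 2872 in the controls and 2288, 2406 and 2481 in the deficient lungs. It fell, with a log2 fold change of -0.22 (SE 0.0602, adjusted p = 0.02404). Eif4ebp3 read 210.4, 203 and 223 in the controls and 222, 209 and 171 in the deficient lungs, with overlapping groups and a log2 fold change of -0.086 (SE 0.131, adjusted p = 0.641). Eif4enif1, the gene of 4E-T, the eIF4E transporter, read 3671, 3980.2 and 4144 in the controls and 3406, 3367 and 3257 in the deficient lungs and fell by 0.23 (adjusted p = 0.0168). Per kilobase of exon, the control levels of Eif4ebp1, Eif4ebp2 and Eif4ebp3 were 466, 480.4 and 285 normalized reads.

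All 5 subunits of eIF2B were lower, with log2 fold changes between -0.33 for Eif2b5, the catalytic ε subunit, and -0.21 for Eif2b3, the γ subunit. Eif2b5 (adjusted p = 0.00206) and Eif2b2 (adjusted p = 0.003903) are among those 18. With log2 Xist as a covariate, Eif2b1, Eif2b3 and Eif2b4 no longer passed, and with the replicate block Eif2b1 went from 0.0415 to 0.0540.

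Of the eIF2 subunits, the α subunit Eif2s1 fell by 0.37 (adjusted p = 0.00246) and the β subunit Eif2s2 by 0.28. Eif2s2 read 5847, 5959 and 6072 in the controls and 4628, 5071 and 4985 in the deficient lungs, and each deficient lung lay below each control (log2 fold change -0.28, SE 0.0535, adjusted p = 0.00456). The γ subunit is made from the X-linked Eif2s3x and the Y-linked Eif2s3y. Eif2s3x read 7771, 4786 and 7764 in the controls and 4391, 4107 and 6543 in the deficient lungs. Eif2s3y read 0.997, 1243 and 0 in the controls and 1385, 1758 and 0.988 in the deficient lungs. The 3 samples without Eif2s3y had the highest Eif2s3x levels of the line, at 6543 to 7771, whatever their genotype, and those with it 4107 to 4786. Eif2s3x did not pass (adjusted p = 0.159), but did with the replicate block (0.0195) and with log2 Xist as a covariate (0.0134), where its log2 fold change was -0.23 in place of -0.43.

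**Figure D2:**
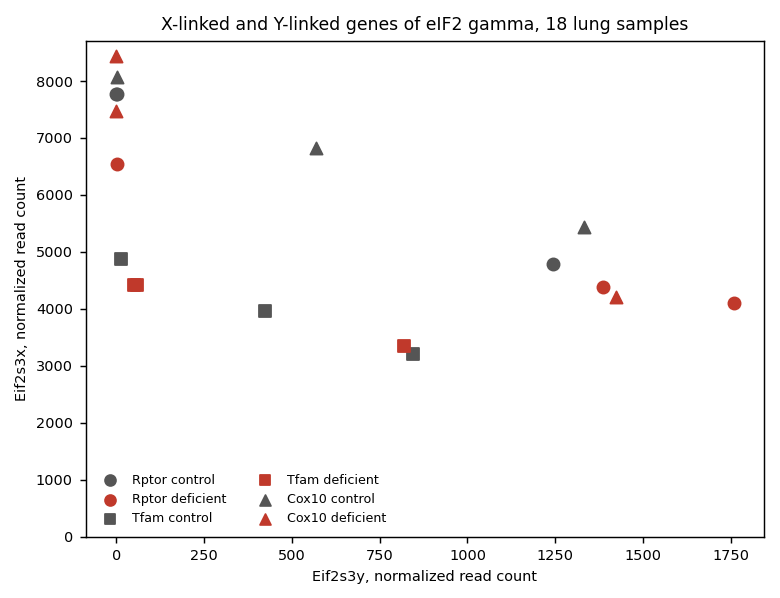
Normalized read count of Eif2s3x (vertical axis) against Eif2s3y (horizontal axis) in the 18 lung samples, with marker shape for the line and color for control or deficient. In the Rptor line the 3 samples with 1 read or fewer of Eif2s3y have Eif2s3x at 6543 to 7771 and the other 3 at 4107 to 4786, and the 4 samples named above lie between the extremes of Eif2s3y.

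The eIF2α kinases gave no call. Eif2ak1, the heme-regulated kinase HRI, read 1873, 1764 and 1862 in the controls and 1605, 1712 and 1633 in the deficient lungs, non-overlapping and lower with a log2 fold change of -0.15 (SE 0.0578, adjusted p = 0.0723). Eif2ak2, the double-stranded RNA kinase PKR, read 977, 1327 and 1111 in the controls and 999, 1276 and 1094 in the deficient lungs. Eif2ak3, the endoplasmic reticulum kinase PERK, read 1106, 1052 and 1022 in the controls and 1128, 1046 and 1047 in the deficient lungs. Eif2ak4, the amino acid sensor GCN2, read 1790.1, 1606 and 1791 in the controls and 1619, 1537 and 1590.0 in the deficient lungs. For the last 3 the groups overlapped, with log2 fold changes of -0.015, 0.019 and -0.13. Eif2a and Eif2d, whose products can deliver tRNA without eIF2, had log2 fold changes of 0.05 and -0.036 and did not pass.

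Of the 5 genes named for eIF1 or eIF1A, which act in scanning, Eif1, Eif1a, Eif1ax and Eif1ad fell and Eif1b, with a log2 fold change of -0.035, did not pass. Eif1a, one of the eIF1A genes, read 3525, 3334 and 3191 in the controls and 2203, 2666 and 2597 in the deficient lungs, and the log2 fold change was -0.43 (SE 0.0804, adjusted p = 0.00433). Eif1ad, named for its eIF1A domain, read 2684, 2727 and 2896 in the controls and 1749.9, 2297 and 2208 in the deficient lungs, and the log2 fold change was -0.42 (SE 0.0991, adjusted p = 0.0123). In both the groups were separate. Eif1a and Eif1ax are closely related in sequence, and how the authors counted reads that fit more than 1 gene is not given in the sources used here.

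Of the 12 eIF3 subunits, 7 fell, 1 rose and 4 did not pass. Eif3b, a core subunit, fell most, with a log2 fold change of -0.41 (SE 0.0532, adjusted p = 0.000892), followed by Eif3l with -0.32 (adjusted p = 0.00508), Eif3c with -0.27 (adjusted p = 0.00761) and Eif3a with -0.26 (adjusted p = 0.01197). Eif3d, Eif3g and Eif3i fell by 0.20, 0.19 and 0.15, the last 2 without passing when log2 Xist was a covariate. Eif3e rose: it read 7724, 8520.0 and 8136 in the controls and 8844, 9048 and 9896 in the deficient lungs, and the log2 fold change was 0.19 (SE 0.0622, adjusted p = 0.04499), a call that was lost with log2 Xist as a covariate and without a filter on low values. Eif3f, Eif3h, Eif3k and Eif3m had log2 fold changes between -0.12 and 0.035. Subunits of the one complex thus differed in direction, with Eif3e and Eif3b 0.19 above and 0.41 below their controls on the log2 scale.

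At the steps after scanning, Eif5, the GTPase-activating protein of eIF2, and Eif5b, the subunit-joining GTPase, fell by 0.34 and 0.18 (adjusted p = 0.0429 and 0.01702). Eif5 read 8894, 9712 and 9199.8 in the controls and 5990.0, 8152 and 8025 in the deficient lungs, and its call was lost with log2 Xist as a covariate. Eif6, which keeps free large subunits apart, had a log2 fold change of -0.17 (SE 0.0574, adjusted p = 0.0529).

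Both eIF5A genes fell, and Eif5a2 had the lowest log2 fold change of the 63 members. Eif5a2, on chromosome 3 (28781276 to 28798846, plus strand), read 811, 942 and 873 in the controls and 559.8, 619.9 and 570.2 in the deficient lungs. The means were 875 ± 65.7 against 583 ± 32.1 (mean ± SD, n = 3 each). This was a log2 fold change of -0.58 (SE 0.08399, adjusted p = 0.00138), and no other member fell further. Eif5a, the more abundant of the pair, read 25652, 22798 and 26063 in the controls and 17696, 18847 and 19236 in the deficient lungs, and the log2 fold change was -0.42 (SE 0.0672, adjusted p = 0.00229). Control levels per kilobase of exon were 174 for Eif5a2 and 10450.0 for Eif5a.

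Among the 5 genes of eEF1 and eEF2, 1 rose, 1 fell and 3 did not pass. Eef2, the translocation GTPase, read 91038, 93884 and 98832 in the controls and 123256, 106561 and 122255 in the deficient lungs. All deficient lungs lay above all controls, with a log2 fold change of 0.31 (SE 0.0796, adjusted p = 0.0175), and the adjusted p rose above 0.05 when Rptor control 1, control 2 or deficient 3 was left out (0.0638, 0.0610 and 0.0506). Eef2k, the kinase that inactivates eEF2, rose too: it read 1502, 1565 and 1575 in the controls and 1759, 2085 and 2043 in the deficient lungs, and the log2 fold change was 0.34 (SE 0.0749, adjusted p = 0.00917). The transcripts of the factor and of its inhibitor were thus both higher.

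Eef1a1, which had the highest level of the members also per kilobase of exon, read 316832, 351557 and 329792 in the controls and 379624, 356064 and 399188 in the deficient lungs. It was higher in every deficient lung, with a log2 fold change of 0.18 (SE 0.0899, adjusted p = 0.143) by limma, while on the recovered reads it passed by edgeR (0.0392) and by DESeq2 (0.0219). Of the exchange-factor subunits of eEF1B, Eef1d fell, with -0.26 (SE 0.0553, adjusted p = 0.00808). Eef1b2 had 0.17 (SE 0.0752, adjusted p = 0.116) and Eef1g -0.034 (SE 0.0524, adjusted p = 0.645), and neither passed. Eef1b2 passed in 4 of the 12 other settings, among them the replicate block (0.0416), log2 Xist as a covariate (0.0287) and the GC and length correction (0.0483). Eef1e1, a component of the tRNA synthetase complex that shares the name, fell by 0.35 (adjusted p = 0.0278, lost with log2 Xist as a covariate).

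Of the 4 Argonaute genes, Eif2c4 (Ago4) was higher, at 442, 406 and 374 in the controls and 626, 549.6 and 461 in the deficient lungs, and the log2 fold change was 0.41 (SE 0.124, adjusted p = 0.0316), which did not pass with log2 Xist as a covariate. Eif2c1, Eif2c2 and Eif2c3 had log2 fold changes of -0.14, -0.076 and 0.05 and were not called.

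**Figure D3:**
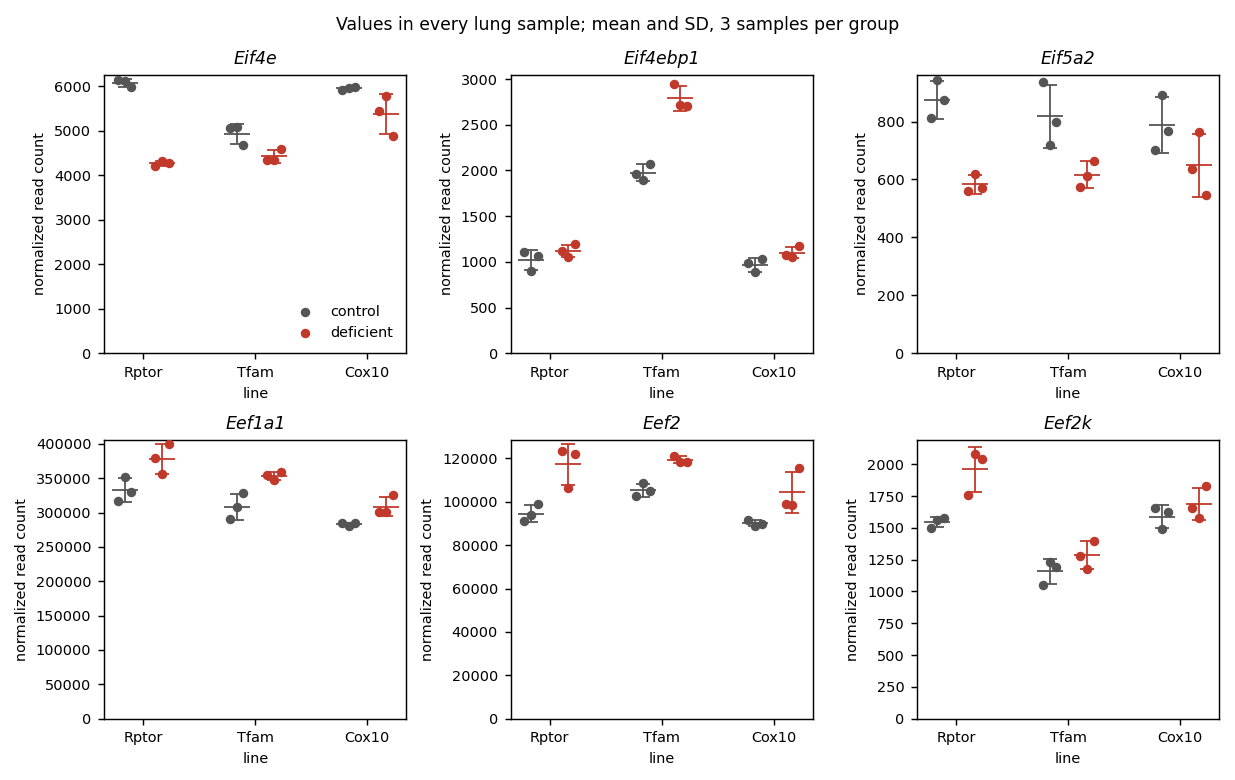
Normalized read count per sample (points), with group mean (long line) and SD (whiskers), for Eif4e, Eif4ebp1, Eif5a2, Eef1a1, Eef2 and Eef2k in control and deficient lungs of the 3 lines, each line scaled in its own table. In the Rptor line Eif4e and Eif5a2 are separate and lower and Eef2 and Eef2k separate and higher, and in the Tfam line Eif4ebp1 is separate and higher (2709 to 2947 against 1894 to 2075).

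Few members moved in the Tfam line. By limma, 2 of 63 (3.17%) passed, where 4.66% of all 15053 genes did, 1 higher beside 2.03% and 1 lower beside 2.63% of all genes. The groups did not overlap for 15 members (9 higher, 6 lower), against 22.8% of all genes. An unadjusted p below 0.05 was found for 10 of 63 members and 2618 of the 15053 genes, so both counts lay near the share of all genes. The median log2 fold change was 0.0059 and that of all genes 0.00098. On the recovered reads DESeq2 called 5, adding Eef1a1 (0.0328), Eef2 (0.0221) and Eif2s2 (0.0299).

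Eif4ebp1 was the member that rose. It read 1962, 1894 and 2075 in the controls and 2947, 2717 and 2709 in the deficient lungs. Every deficient lung lay above every control, with 1977 ± 91.3 against 2791 ± 135 (mean ± SD, n = 3 each) and a log2 fold change of 0.50 (SE 0.0613, adjusted p = 0.000894). It passed an adjusted p of 0.05 in all 12 other settings that kept all samples and in all 6 fits without 1 sample, where its log2 fold change ran from 0.46 to 0.53. With all samples the value lay just under an absolute log2 fold change of 0.5, and on either side of it in the other fits. The gene is also a known transcriptional target of ATF4. The other eIF4E-binding genes did not pass. Eif4ebp2 read 4502, 4611 and 3477 in the controls and 4129, 3907 and 3822 in the deficient lungs. For Eif4ebp3 the values were 378, 399 and 443 in the controls and 378, 411 and 359 in the deficient lungs. Those of Eif4enif1 were 4785, 4636 and 4266 in the controls and 4355, 4435 and 3984 in the deficient lungs. In all 3 the groups overlapped, with log2 fold changes of -0.076, -0.087 and -0.10. Per kilobase of exon, Eif4ebp1 stood in the controls at 900.2 and Eif4ebp2 at 726.

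Eif5a2 was lower in the Tfam line as well, at 936, 719.5 and 797 in the controls and 573, 611 and 665 in the deficient lungs, with separate groups and a log2 fold change of -0.40 (SE 0.1001, adjusted p = 0.0471). This call was at the threshold and was lost with scaling to equal totals, without a filter, with the replicate block (0.0568), with all 18 samples in 1 fit and in the fits without 1 sample, other than that without Tfam control 2 (adjusted p = 0.0231). It was the 1 member called in more than 1 line. In the same samples 6 of 10 epithelial markers (median log2 fold change -0.30) and 4 of 5 smooth muscle markers (median -0.48, summed level 16744 to 19304 against 22086 to 25572 in the controls) were lower, and their part in this difference was not tested. Without Tfam control 3 the number of calls was 10, the fold changes then being lower for Eif2b2, Eif2c2, Eif4e, Eif4ebp2 and Eif4g1 and higher for Eef1b2, Eif2ak2, Eif2s2 and Eif3k beside Eif4ebp1, and Eif5a2 no longer passed. The call count of this line thus rested on single lungs, Tfam control 3 among those that also held both sex-linked transcripts.

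Other members of the Tfam line are given by their values. Eif4e read 5053, 5074 and 4673 in the controls and 4341, 4329 and 4587 in the deficient lungs (log2 fold change -0.16, SE 0.0575, adjusted p = 0.175). Eif2s2 read 4643, 4132 and 4820.4 in the controls and 5405, 5015 and 5733 in the deficient lungs (log2 fold change 0.25, SE 0.0728, adjusted p = 0.0883). In both the groups were separate, lower for the first and higher for the second. Eef2 read 102598, 108608 and 104835 in the controls and 121172, 118533 and 118315 in the deficient lungs. Eef1a1 read 289988, 308175 and 327875 in the controls and 354351, 347293 and 359295 in the deficient lungs. Each was separate and higher, with adjusted p of 0.303 and 0.42 by limma. Among the kinases, PKR (Eif2ak2) read 735, 764 and 829 in the controls and 859.5, 925 and 922 in the deficient lungs, separate and higher but not passing (log2 fold change 0.22, SE 0.0719, adjusted p = 0.133). HRI (Eif2ak1) read 2376, 2244 and 2322 in the controls and 2274, 2113 and 1929 in the deficient lungs. PERK (Eif2ak3) had 807, 919.6 and 866 in the controls and 856, 869.6 and 807 in the deficient lungs. For GCN2 (Eif2ak4) the values were 1324, 1324 and 1253 in the controls and 1303, 1357 and 1309.9 in the deficient lungs. These 3 kinases overlapped between groups, with log2 fold changes of -0.14, -0.032 and 0.026. The eIF2γ genes overlapped as well and did not pass (adjusted p = 0.949 for Eif2s3x and 0.925 for Eif2s3y). Eif2s3x read 4867, 3209.5 and 3965 in the controls and 3355, 4424 and 4418 in the deficient lungs. Eif2s3y had 14.2, 844 and 422 in the controls and 819.8, 50.6 and 59.6 in the deficient lungs.

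In the Cox10 line 0 of 63 members passed by limma, by edgeR or by DESeq2, while 0.475% of all 14937 genes passed by limma, 0.141% higher and 0.335% lower. Members with an unadjusted p below 0.05 numbered 12 of 63, beside 1945 of the 14937 genes, and the smallest adjusted p was 0.171, for the eIF1A gene Eif1ax (log2 fold change -0.18). The groups did not overlap for 26 members, 20 lower and 6 higher, against 21.3% of all genes. The median log2 fold change was -0.068 and that of all genes 0.0014.

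Eif4ebp1 read 984, 885 and 1029 in the controls and 1076, 1058 and 1172 in the deficient lungs. The groups were separate, with the deficient lungs higher, and the difference of 0.19 (SE 0.0754, adjusted p = 0.356) on the log2 scale did not pass. Eif4e read 5922, 5948 and 5975 in the controls and 5451, 5786 and 4885 in the deficient lungs, separate and lower, with -0.15 (SE 0.0645, adjusted p = 0.382). Eif5a2 read 702, 892 and 769 in the controls and 637, 764 and 546 in the deficient lungs, overlapping, with -0.29 (SE 0.135, adjusted p = 0.418). Deficient samples 1 and 3 lay below every control for Eif5a2 and deficient sample 2 among them. Eef2 read 91558, 89074 and 89931 in the controls and 99210.0, 98318 and 115451 in the deficient lungs. Eef1a1 read 284345, 280315 and 284070.0 in the controls and 300186, 300353 and 325028 in the deficient lungs. Both were higher in every deficient lung and did not pass by limma. HRI (Eif2ak1) read 2041, 2079.8 and 2018 in the controls and 1852, 1975 and 1808 in the deficient lungs, separate and lower with -0.12 (SE 0.0512, adjusted p = 0.3699), and the other 3 kinases overlapped. PKR (Eif2ak2) had 985, 904 and 921 in the controls and 1047, 841 and 921 in the deficient lungs. PERK (Eif2ak3) stood at 871, 995 and 1025 in the controls and 942, 952 and 1105 in the deficient lungs. For GCN2 (Eif2ak4) they were 1789, 1674 and 1739 in the controls and 1782, 1698 and 1536 in the deficient lungs.

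The other eIF4E-binding genes overlapped between the groups of the Cox10 line, with log2 fold changes of -0.049, -0.01 and -0.027 for Eif4ebp2, Eif4ebp3 and Eif4enif1. Eif4ebp2 read 2846, 2999.7 and 2944 in the controls and 2775, 2974 and 2750.1 in the deficient lungs. Eif4ebp3 had 200.5, 239 and 192 in the controls and 214, 214 and 197 in the deficient lungs. Eif4enif1 stood at 4257, 4117 and 4207 in the controls and 4254, 4355 and 3759 in the deficient lungs. The eIF2γ genes overlapped too, with Eif2s3x high where Eif2s3y was near 0. Eif2s3x read 8068, 5444 and 6827 in the controls and 7481, 8446 and 4205 in the deficient lungs. Eif2s3y had 1.99, 1332 and 569.6 in the controls and 0, 0 and 1423 in the deficient lungs. Neither passed (adjusted p = 0.934 and 0.6396).

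Effects were then compared between lines, which share no samples, by testing the difference of the log2 fold changes. Between the Rptor and Tfam lines the effect differed for 13 of 63 members, all with the lower value in the Rptor line, where 11.2% of 14550 genes differed. Eif2s2 had the largest of these differences, -0.53 (SE 0.0975, adjusted p = 0.00232) for the Rptor minus the Tfam effect, the gene being lower in the Rptor line and separate and higher in the Tfam line. Eif5 differed by -0.49 (SE 0.139, adjusted p = 0.0307) and Eif1ad by -0.48 (SE 0.119, adjusted p = 0.0168). The helicase Eif4a1 differed by -0.40 (SE 0.106, adjusted p = 0.0219) and the eIF3 subunit Eif3c by -0.37 (SE 0.0736, adjusted p = 0.00431). Among Tfam samples, Eif5 had 8223, 7996 and 8788 in the controls and 9297, 8995 and 9529 in the deficient lungs, separate and higher. Eif1ad stood at 1782, 1758 and 1938 in the controls and 1844, 1913 and 1943 in the deficient lungs, with overlap. Eif4a1 had 22964, 20173 and 26362 in the controls and 22452, 23754 and 25181 in the deficient lungs, also with overlap. The remaining gene of the 5 largest differences was Eif3c. Eif3c in the Rptor line read 11869, 12429 and 12001 in the controls and 10718, 9603 and 9784 in the deficient lungs. In the Tfam line, it read 9740.0, 9907 and 10632 in the controls and 10562, 10752 and 11099.7 in the deficient lungs. The groups were separate and lower in the first line and overlapped in the second. Eif4e differed by -0.35 (SE 0.0775, adjusted p = 0.00857), and Eif4ebp1 by -0.36 (SE 0.112, adjusted p = 0.0455). The count was 22 without Tfam control 3, 5 without Tfam control 2, 7 without Rptor control 3, and 8 without Rptor control 1, Tfam deficient 2 or Tfam deficient 3.

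Between the Rptor and Cox10 lines 3 of 63 members differed, beside 7.48% of all genes. Eif4e differed by -0.36 (SE 0.0775, adjusted p = 0.008104). Eif4e3, a further member of the cap-binding family, differed by -0.34 (SE 0.0991, adjusted p = 0.0423). It read 1215, 1131 and 1075 in the controls and 944, 1005 and 1117 in the deficient lungs of the Rptor line, with overlap. In the Cox10 line the values were 874, 817 and 875 in the controls and 978, 919 and 1021 in the deficient lungs, the deficient lungs all being higher. Eif3l differed by -0.25 (SE 0.0727, adjusted p = 0.0435). It read 8712, 8227 and 8236 in the controls and 7049.6, 6224 and 6927 in the deficient lungs of the Rptor line. Its values in the Cox10 line were 7437, 7612 and 7728 in the controls and 7343, 7414 and 6971 in the deficient lungs. In both lines its groups were separate and lower. Each of the 3 had the lower effect in the Rptor line. The count was 1 with log2 Xist as a covariate, 1 without a filter on low values and 2 with the replicate block. The members that passed in those fits are not named here. The count was 5 without Cox10 deficient 3 and 1 without Rptor control 1, Rptor deficient 2, any Cox10 control or Cox10 deficient 1, and 2 or 3 without any other lung of these lines.

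Between the Tfam and Cox10 lines 0 of 63 members differed by limma, beside 0.0550% of all genes, and 6 had an unadjusted p below 0.05. The difference for Eif4ebp1 was 0.31 (SE 0.112, adjusted p = 0.977), with an unadjusted p of 0.0141. Eif4ebp1 thus passed in the Tfam line and not in the Cox10 line, while the difference itself did not pass.

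**Figure D4:**
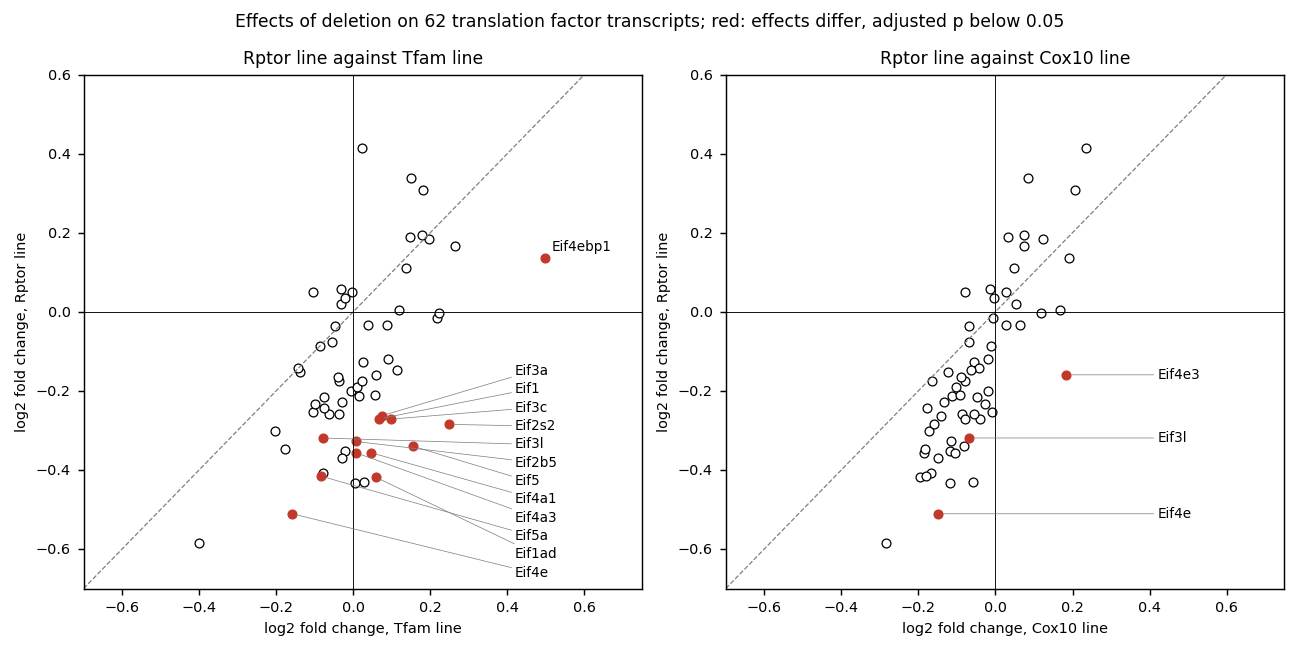
Log2 fold change of each member but Eif2s3y in the Rptor line (vertical axis) against the Tfam line (left) and the Cox10 line (right), with the dashed line of equal effects and red points where the effects differed at an adjusted p below 0.05. The 13 red points on the left and 3 on the right lie below the dashed line, Eif4ebp1 being the red point at 0.50 on the Tfam axis.

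Genes that work beside the members were counted from lists. Of 22 other cytosolic translation factors, 12 passed in the Rptor line (54.5%, beside 34.8% of all genes), 11 lower and 1 higher, with a median of -0.24. The ribosome recycling factor Abce1 read 8075, 8591 and 8077 in the controls and 5335, 5586 and 5361 in the deficient lungs (log2 fold change -0.60, SE 0.0507, adjusted p = 0.000137). The release factor Etf1 read 8038, 9236 and 8469 in the controls and 5431, 6598 and 6249 in the deficient lungs (log2 fold change -0.50, SE 0.0824, adjusted p = 0.002597). The 1 gene of the list that rose was Tpt1, the translationally controlled tumor protein, at 0.20. Neither other line had a call, 0 of 22 having passed by limma, with 4 and 3 at an unadjusted p below 0.05 and medians of 0.022 and -0.13.

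Of 18 genes of mTORC1 and eIF2 signaling to translation, 8 passed in the Rptor line (44.4%, beside 34.8% of all genes), 2 higher and 6 lower, with a median of -0.067. Pdcd4, an inhibitor of eIF4A, rose, at 2783, 2635 and 2743 in the controls and 3711, 3752 and 3789 in the deficient lungs (log2 fold change 0.46, SE 0.0495, adjusted p = 0.000396), so that the helicase Eif4a1 and its inhibitor changed in opposite directions. Dnajc3, an inhibitor of eIF2α kinases, fell, at 4171, 3629.6 and 3349 in the controls and 2457, 2765 and 2902 in the deficient lungs (log2 fold change -0.45, SE 0.0922, adjusted p = 0.00644). The Tfam and Cox10 lines had 0 of 18 by limma, with 2 and 1 at an unadjusted p below 0.05 and medians of -0.011 and -0.0027.

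The factors of mitochondrial translation gave 3 of 10 lower and 0 higher in the Rptor line, where 18.2% of all genes were lower and 34.8% called in either direction, with a median of 0.025. The elongation factor gene Tsfm read 972, 814 and 944 in the controls and 651, 773 and 686 in the deficient lungs (log2 fold change -0.37, SE 0.0971, adjusted p = 0.0187). Gfm1, the gene of another elongation factor, read 1340.3, 1542 and 1561 in the controls and 1088, 1192 and 1199 in the deficient lungs (log2 fold change -0.35, SE 0.0791, adjusted p = 0.0101). For the Tfam and Cox10 lines the count was 0 of 10 by limma, with 0 and 2 at an unadjusted p below 0.05 and medians of 0.065 and -0.0096.

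The ATF4 and CHOP response, downstream of eIF2α phosphorylation, was listed with 24 genes. Tfam deficient lungs had 17 of the 24 higher (70.8%, beside 4.66% of all genes called) and 0 lower, with a median of 0.37. Chac1, which degrades glutathione, read 29.5, 29.3 and 28.01 in the controls and 341, 347 and 307 in the deficient lungs (log2 fold change 3.47, SE 0.129, adjusted p = 3.3e-07). The pseudokinase Trib3 read 65.02, 47.5 and 62.02 in the controls and 294, 223 and 297 in the deficient lungs (log2 fold change 2.20, SE 0.163, adjusted p = 3.2e-05). Rptor deficient lungs had 12 of 24 past the threshold (50%, beside 34.8% of all genes), 8 lower and 4 higher, with a median of -0.20. Psat1, an enzyme of serine synthesis, read 10239, 10204 and 9722 in the controls and 5019, 5426 and 5305 in the deficient lungs and fell by 0.94. Mthfd2, an enzyme of mitochondrial folate metabolism, read 1334, 1372 and 1246 in the controls and 636, 689 and 651 in the deficient lungs and fell by 1.00. In the Cox10 line, where 0.475% of all genes were called, Trib3 alone passed (4.17% of the list), at 38.7, 47.4 and 41.97 in the controls and 90.8, 107 and 109.7 in the deficient lungs (log2 fold change 1.24, SE 0.169, adjusted p = 0.0312), with a median of 0.18. Atf4 itself read 5343, 5442 and 5471 in the controls and 3162, 4172 and 4038 in the deficient lungs in the Rptor line, where it fell (log2 fold change -0.53, SE 0.0973, adjusted p = 0.00424). For the Tfam line the values were 5393, 5259 and 5471 in the controls and 6365, 6149 and 5879 in the deficient lungs (log2 fold change 0.19, SE 0.0548, adjusted p = 0.08602). For the Cox10 line they were 4070.3, 4402 and 4343 in the controls and 4132, 4334 and 4569 in the deficient lungs (log2 fold change 0.024, SE 0.0553, adjusted p = 0.864).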

How the data were processed

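RNA of 18 whole-lung samples at 14.5 dpc (3 lines, 2 genotypes, 3 samples each) was sequenced by the authors. The authors deposited 1 table per line with signal values that are normalized read counts, reads per gene divided by a size factor. The submitters' processing notes name Trim Galore, HISAT2, featureCounts, DESeq2 and mm10, without versions, and the annotation is not given in the sources used here. The authors' columns of log2 fold changes and p-values were not used. Dividing each sample by the value of 1 read (0.978 to 1.02) gave whole reads for 100% of values within 0.1 read, with totals of 27675600 to 29704700 reads. These depths leave counting error small for members, which averaged at least 50. The closest replicates differed by a chi-square of 4.10 per gene, so no library was counted as a duplicate.

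Each line was fitted alone with limma 3.58.1 (R 4.3.3) on log2(value + 1), for genes with a value of at least 10 in at least 3 of 6 samples. Fold changes are on that log2 scale, deficient minus control, and p-values are two-sided and adjusted by Benjamini-Hochberg over all genes tested, with a threshold of 0.05. Differences between lines were tested in 1 fit of 18 samples, since each table was scaled separately. Recovered reads were also tested with edgeR 4.0.16 and DESeq2 1.42.0. The main limma, edgeR and DESeq2 fits of a line and the main fit of 18 samples were also run on simulated data. The alternatives named next were not. Other alternatives were the scaling, filter, pseudocount, Xist covariate, replicate block and samples left out, and a correction for GC content and length that was added after seeing the data. In the Rptor line samples with the same number deviated together (correlations of 0.221, 0.330 and 0.259). Blocked values are therefore given for members whose call they change within a line. For differences between lines only the counts with the block are given. Per-sample values were given for Eif4ebp1, the 5 largest rises and falls per line that passed with no overlap, members called in at least 2 lines, the 5 largest differences per pair of lines, the eIF2γ genes, the eIF2α kinases, Eif4e and its binding proteins, Eef1a1, Eef1a2, Eef2, and the 2 largest changes of each list among those called. Eif3b was described as the lowest of its complex after its values were seen. Members and lists were chosen with earlier results of these data known. Gene positions and exon lengths are from the GENCODE annotation of GRCm38.p6.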

Additional observations from a re-analysis of the deposited data

Results flagged for a closer look

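For 16 pairings of a member with 2 lines, the effect of deletion differed between the lines by the test of the difference itself. Between the Rptor and Tfam lines, where every difference is the Rptor effect minus the Tfam effect, these were Eif2s2 with -0.53 (SE 0.0975, adjusted p = 0.00232), Eif5 with -0.49 (SE 0.139, adjusted p = 0.0307), Eif1ad with -0.48 (SE 0.119, adjusted p = 0.0168) and Eif4a1 with -0.40 (SE 0.106, adjusted p = 0.0219). Eif3c differed by -0.37 (SE 0.0736, adjusted p = 0.00431), Eif4a3 by -0.37 (SE 0.105, adjusted p = 0.0338), Eif4ebp1 by -0.36 (SE 0.112, adjusted p = 0.0455), Eif4e by -0.35 (SE 0.0775, adjusted p = 0.00857) and Eif3a by -0.34 (SE 0.0912, adjusted p = 0.0248). Smaller differences were those of Eif1 with -0.34 (SE 0.0827, adjusted p = 0.0152), Eif2b5 with -0.33 (SE 0.0826, adjusted p = 0.0161), Eif5a with -0.33 (SE 0.0913, adjusted p = 0.0266) and Eif3l with -0.24 (SE 0.0727, adjusted p = 0.04196). Between the Rptor and Cox10 lines they were Eif4e with -0.36 (SE 0.0775, adjusted p = 0.008104), Eif4e3 with -0.34 (SE 0.0991, adjusted p = 0.0423) and Eif3l with -0.25 (SE 0.0727, adjusted p = 0.0435). Of the genes of the first pair, Eif3l, Eif4e and Eif5a had a negative log2 fold change in both lines and Eif4ebp1 a positive one in both. The others were negative in the Rptor line and positive in the Tfam line, where none of them passed. Eif2b5 and Eif4a3 were near 0 in the Tfam line, at 0.0059 and 0.0083. The cause of these differences was not tested.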

How the results depend on the processing

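In the Rptor line 29 to 38 members passed under the 12 other settings that kept all samples and the threshold, 20 to 34 with 1 sample left out, 16 at an adjusted p below 0.01 and 2 with an absolute log2 fold change of at least 0.5. In the Tfam line the count was 1 with scaling to equal totals, without a filter and at an adjusted p below 0.01, 0 at an absolute log2 fold change of at least 0.5, 5 by DESeq2, 5 with the GC and length correction and the replicate block, and 1 to 10 with 1 sample left out. The Cox10 line gave 0 in every setting. Differences between the Rptor and Tfam lines numbered 3 at an adjusted p below 0.01, 1 at an absolute value of at least 0.5 and 5 to 22 with 1 sample left out. Those between the Rptor and Cox10 lines numbered 1 without a filter, with the Xist covariate and at an adjusted p below 0.01, 0 at 0.5 and 1 to 5 with 1 sample left out. The median of the mTORC1 and eIF2 signaling list in the Rptor line was -0.054 with scaling to equal totals, -0.061 by edgeR, -0.060 by DESeq2, -0.10 with the GC and length correction, with or without the block, and -0.087 to -0.027 with 1 sample left out. That of the ATF4 and CHOP list in the Rptor line was -0.15 with the filter at a mean of 50 and -0.24 to -0.17 with 1 sample left out. With 1 sample left out, the median of the other cytosolic factors lay between -0.25 and -0.20 (Rptor line), -0.011 and 0.081 (Tfam line) and -0.16 and -0.054 (Cox10 line). That of mitochondrial factors lay between -0.017 and 0.046 (Rptor line), that of mTORC1 and eIF2 signaling between -0.033 and 0.015 (Tfam line) and -0.043 and 0.016 (Cox10 line), and that of ATF4 and CHOP between 0.34 and 0.41 (Tfam line). The cause of these shifts was not tested.

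With the replicate block 38 members passed in the Rptor line (6 higher, 32 lower, 35 of them shared with the fit without it). With the same block the Tfam line had 2, Eif2s2 gained (0.0184) and Eif5a2 lost (0.0568), and the Cox10 line 0. Samples of the same number correlated at -0.312, -0.207 and 0.151 in the Tfam line and at 0.447, 0.202 and 0.0488 in the Cox10 line. Whether samples of the same number shared a litter or a batch was not tested in any line. With the block 17, 2 and 0 members differed between the Rptor and Tfam, Rptor and Cox10, and Tfam and Cox10 lines. Of 180 results of named calls under alternatives, 156 kept direction and side of the threshold, 24 no longer passed and 0 reversed. Replicates differed by a chi-square of 4.10 to 31.6 per gene, so the spread between samples, more than read depth, sets the precision of these values.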

Other observations

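Eef1a2, the eEF1A gene that replaces Eef1a1 in heart, skeletal muscle and neurons, fell below the level set for members and varied within groups. In the Tfam line it read 45.7, 212 and 100.03 in the controls and 333, 67.5 and 77.2 in the deficient lungs. In the Rptor line it read 4.99, 10.99 and 40.8 in the controls and 18.4, 27.7 and 10.9 in the deficient lungs, and in the Cox10 line 52.6, 16.1 and 31.98 in the controls and 50.9, 6.03 and 8.897 in the deficient lungs. The summed level of 7 heart and skeletal muscle markers ran from 5380 to 13690 in the controls and from 9105 to 24700 in the deficient lungs of the Tfam line, from 1307 to 3929 and 1199 to 2325 in the Rptor line, and from 868 to 6538 and 917 to 6721 in the Cox10 line.

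Control levels of some members differed between the tables, which were scaled separately, and these differences were not tested. Eif4ebp1 averaged 1022 ± 108, 1977 ± 91.3 and 966 ± 74 in the controls of the Rptor, Tfam and Cox10 lines (mean ± SD, n = 3 each). Eif3a averaged 23841 ± 600.1, 11515 ± 409 and 25652 ± 197, and Eif4a2 10847 ± 569, 5526 ± 519 and 10662 ± 477.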
